A study of Mus musculus with 24 samples.

Results

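Interferon beta, its receptor and a set of interferon-stimulated genes were followed in macrophages of the mouse dura mater and diaphragm. The genes were taken by name from a list of 39, and 38 of them were found among the 41388 genes of the count table. Gbp5 was not matched to a row and is not analysed here. The macrophages were sorted in bulk by flow cytometry after the blood had been flushed out through the heart, per a protocol that describes the dura. The dura mater is the outer membrane around the brain, and the diaphragm is the muscle sheet between chest and abdomen. Per the labels, both tissues came from wild type C57BL/6 mice aged 17 weeks in the steady state. The series title names RAG-1 deficient mice that received T cells, a setting that the labels of these samples do not give, and none of the groups below carries a named transgene or treatment. The 9 dural and 15 diaphragm columns could be tied to their tissue, but not to the macrophage subsets that the labels call C1, C2 and C3. Names of dural columns join a number, which is 1, 3 or 4, to one of the marks P4, P5 and P6, and what these mean is not stated in the labels. The diaphragm columns carry a number only.

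Columns of the diaphragm that shared a number differed by about as much as repeat reads of 1 library would, and were summed. Another 2 columns, with 1496 and 2115 counts, were not used. There remained 9 dural libraries, 3 for each mark, and 7 diaphragm libraries, described here as the sets 1/7, 2/8 and 3/6/9. Totals ran from 10457920 to 24077834 counts in dura and from 11053351 to 30132295 in diaphragm. The 13 general macrophage genes summed to 30240 to 36700 CPM (counts per 1000000, scaled with TMM factors) in dura and 27720 to 37310 CPM in diaphragm, and none was at 0 in either tissue. The labels do not say that libraries came from separate animals, and the 9 dural libraries combine 3 numbers with 3 marks, so the tests measure the spread between these libraries, which may be technical in part. Tissue cannot be told apart from any batch of preparation or sequencing that followed it.

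Type I interferons are cytokines that cells release after their sensors detect foreign or misplaced nucleic acid or bacterial products. Interferon beta binds the receptor pair IFNAR1 and IFNAR2, and the kinases on the receptor then activate STAT2, which with IRF9 takes part in binding the interferon-stimulated response element (ISRE) in the promoters of target genes. The products of these genes block viral translation, degrade RNA, or are themselves sensors and transcription factors of the pathway. Interferon gamma uses another receptor, acts through the gamma-activated site (GAS), and is the main inducer of Irf1 and of the guanylate-binding and immunity-related GTPases in macrophages.

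The promoters of 7 genes are shown, and 6 of them form the contrasts described below. The other, Ifnb1, is the only interferon looked up that had more than a few counts in most diaphragm libraries. Each run is the 250 bases before the transcription start in RefSeq (GRCm38.p6), written 5′ to 3′ on the strand of the gene. Ifnb1 lies at chr4:88522795-88523044 on the minus strand, Isg15 at chr4:156200819-156201068 on the minus strand, Ifit3 at chr19:34583279-34583528, Ifit1 at chr19:34640639-34640888, Oasl2 at chr5:114896684-114896933, Oasl1 at chr5:114922990-114923239 and Gbp7 at chr3:142530086-142530335, the last 5 on the plus strand. Capitals mark every match on either strand to the ISRE-type letters GAAANNGAAA, and overlapping matches run together.
Ifnb1: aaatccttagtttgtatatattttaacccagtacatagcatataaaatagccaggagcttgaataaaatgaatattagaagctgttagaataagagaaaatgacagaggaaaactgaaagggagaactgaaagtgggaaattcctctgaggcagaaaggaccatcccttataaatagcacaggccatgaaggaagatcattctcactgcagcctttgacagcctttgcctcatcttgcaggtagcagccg
Ifit3: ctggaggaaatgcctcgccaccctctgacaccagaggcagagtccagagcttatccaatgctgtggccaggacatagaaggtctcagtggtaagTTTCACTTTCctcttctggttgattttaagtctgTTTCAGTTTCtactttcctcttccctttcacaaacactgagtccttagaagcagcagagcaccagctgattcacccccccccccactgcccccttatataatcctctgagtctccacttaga
Ifit1: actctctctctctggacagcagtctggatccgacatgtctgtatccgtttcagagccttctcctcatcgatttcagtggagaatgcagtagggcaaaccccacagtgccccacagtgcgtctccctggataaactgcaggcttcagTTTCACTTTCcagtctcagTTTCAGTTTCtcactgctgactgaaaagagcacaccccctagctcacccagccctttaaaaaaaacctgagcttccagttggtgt
Oasl2: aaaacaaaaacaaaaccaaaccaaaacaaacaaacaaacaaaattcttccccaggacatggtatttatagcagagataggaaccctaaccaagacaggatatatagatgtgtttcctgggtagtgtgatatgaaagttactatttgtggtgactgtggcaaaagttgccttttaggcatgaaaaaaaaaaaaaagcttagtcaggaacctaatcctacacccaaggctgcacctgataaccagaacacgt
Oasl1: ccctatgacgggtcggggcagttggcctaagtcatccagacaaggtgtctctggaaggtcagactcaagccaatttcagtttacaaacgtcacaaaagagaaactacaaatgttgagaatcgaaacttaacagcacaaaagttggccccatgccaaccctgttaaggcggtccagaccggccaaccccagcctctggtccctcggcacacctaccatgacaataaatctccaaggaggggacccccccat
Isg15: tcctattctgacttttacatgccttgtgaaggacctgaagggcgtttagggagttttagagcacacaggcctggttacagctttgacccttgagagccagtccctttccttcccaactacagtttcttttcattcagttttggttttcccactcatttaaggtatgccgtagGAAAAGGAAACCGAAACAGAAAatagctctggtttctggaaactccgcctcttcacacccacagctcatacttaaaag
Gbp7: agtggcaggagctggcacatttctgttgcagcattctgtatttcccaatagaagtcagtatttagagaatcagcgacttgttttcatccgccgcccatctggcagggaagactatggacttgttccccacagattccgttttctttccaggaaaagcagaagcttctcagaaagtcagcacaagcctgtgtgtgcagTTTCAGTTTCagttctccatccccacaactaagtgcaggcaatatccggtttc
Isg15 held 3 overlapping matches, which begin 78, 72 and 66 bases before the start. Ifit1 held 2, which begin 104 and 85 bases before it, Ifit3 held 2, at 156 and 122 bases, and Gbp7 held 1, at 53 bases. The windows of Ifnb1, Oasl2 and Oasl1 held none of these letters. A promoter was found for 30 of the 38 genes of the count table, and 14 of the 30 held the ISRE-type letters (46.7%), against 3.46% of the 27025 genes with a promoter. The GAS-type letters TTCNNNGAA, searched on both strands, stood in 9 of the 30 (30.0%) and in 8.13% of all genes.

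Between the tissues, the interferon genes did not move as a block. Dural macrophages had almost no Ifnb1 RNA and less Oasl1, Isg15 and Ifit1 than diaphragm macrophages, and more Ifit3, Oasl2, Irf1, Irf9, Isg20, Igtp and Ifi47. By edgeR's quasi-likelihood test with Benjamini-Hochberg adjustment over all genes and a threshold of 0.05, 7 of 38 members were higher and 4 lower in dura, which is 28.9% of them. Of all 13136 genes tested, 26.4% were called, 11.2% higher and 15.3% lower, so the share of members called was close to that of all genes. The median log2 fold change, dura minus diaphragm, was 0.18 over the members and -0.011 over all genes. The 27 members that were not called lay between -0.67 and 0.83, with 17 above 0 and 10 below. Of the members, 20 had an unadjusted p under 0.05 (52.6%, against 38.3% of all genes). The count depended on the libraries and the scaling: 18 members were higher and 4 lower without diaphragm libraries 2 and 8, 14 and 4 without library 2 alone, 3 and 4 without libraries 3, 6 and 9, 3 and 4 without mark P4, and 1 and 3 with the dural libraries summed per number. Scaling by library totals moved the median of all genes to 0.124, and then 14 members were higher and 4 lower. The share of all genes called in each of these settings is not given here. Whether the members moved more than other genes was therefore not shown.

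**Figure D1:**
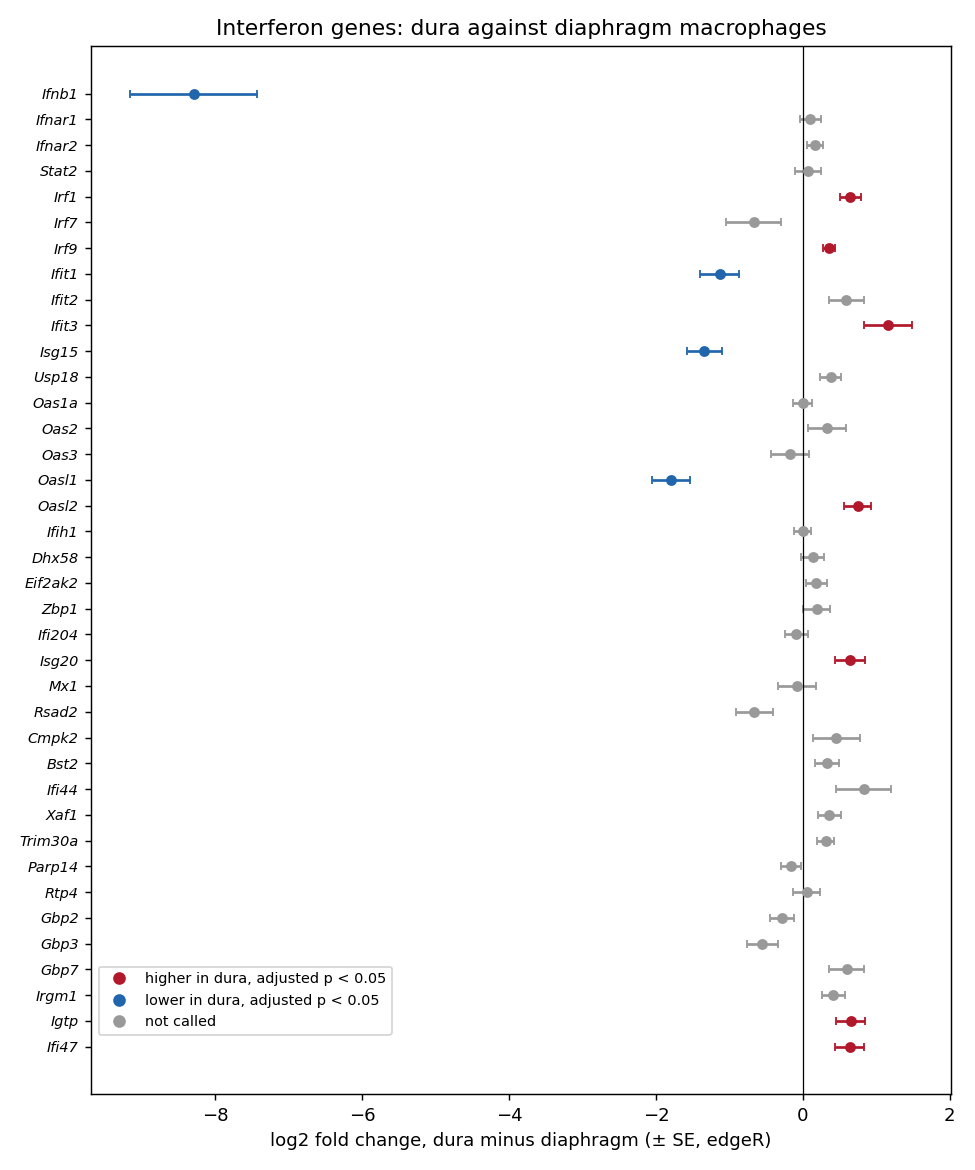
Log2 fold change of each of the 38 interferon genes between dura and diaphragm macrophages (horizontal axis, dura minus diaphragm, bars are the standard error from edgeR), ordered by role, with called genes coloured. Ifnb1 stands far to the left at -8.29, and called genes lie on both sides of 0.

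Ifnb1, the gene of interferon beta (chromosome 4, 88522025 to 88522774, a single exon), had 0 counts in 7 of 9 dural libraries, 6 counts in 3P6 and 1 count in 4P6. In the diaphragm it had 175 and 135 counts in libraries 1 and 7, 115 and 228 in libraries 2 and 8, and 719, 346 and 955 in libraries 3, 6 and 9. Every diaphragm library thus lay above every dural library. It was the only member whose tissues did not overlap with dura below, where 4.42% of all genes were so placed. No member had all dural libraries above all diaphragm libraries, where 2.47% of genes did. In CPM the dural values were 0 in 7 libraries, 0.468 in 3P6 and 0.0673 in 4P6, against a lowest of 4.99, a median of 10.4 and a highest of 43.7 in diaphragm. The mean was 0.0595 ± 0.155 CPM in dura (SD, n = 9) and 19.2 ± 15.9 CPM in diaphragm (SD, n = 7), and the fitted log2 fold change was -8.29 ± 0.87 (SE, adjusted p = 3.4e-06).

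Because so few dural counts stand behind it, the fitted fold depends on single libraries. Pooled over libraries, 7 counts in dura and 2673 in diaphragm gave levels of 0.0522 and 17.7 CPM, a diaphragm level 339 times the dural one (95% exact interval 164 to 843, counting error only). Without library 3P6, 1 dural count remained and the ratio was 2143, with an interval of 384 to 84690. The fitted log2 fold change ran from -11.5 to -6.815 over 31 alternative settings, all of which kept the call. The filter on low counts left Ifnb1 out of the comparisons of dural marks. In bulk samples, fewer cells that carry a transcript and less of it per cell cannot be told apart, here and for every result below.

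The receptor chains Ifnar1 and Ifnar2 were not called between tissues by edgeR, DESeq2 or limma-voom, and 0 of the 2 had an unadjusted p under 0.05. With library totals Ifnar2 was called higher in dura. Ifnar1 had a lowest, median and highest value of 105, 168 and 218 CPM in dura and 125, 153 and 196 CPM in diaphragm. Ifnar2 had 135, 159.5 and 176 CPM in dura and 104, 141 and 186 CPM in diaphragm. Their fold changes were 0.10 ± 0.15 and 0.17 ± 0.11 on the log2 scale (adjusted p = 0.642 and 0.257), and the libraries of the tissues overlapped for both.

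Among the transcription factors, Irf1 and Irf9 were higher in dura. Irf1, a factor that interferon gamma induces and that itself activates antiviral and antigen presentation genes, had 471.5, 656 and 956 CPM as its lowest, median and highest value in dura, against 384, 447 and 479 CPM in diaphragm. All but 1 of the dural libraries lay above every diaphragm library, and the log2 fold change was 0.65 ± 0.14 (adjusted p = 0.00285). Irf9, the DNA-binding partner of STAT2, had 87.8, 104 and 116 CPM in dura and 68.35, 81.6 and 94.99 CPM in diaphragm, with a log2 fold change of 0.36 ± 0.08 (adjusted p = 0.00422). Its call was lost when dural libraries of 1 number were added together (adjusted p = 0.0774, the highest of 31 alternatives, the lowest being 0.000827). Stat2, which joins it in the complex, was not called, at 0.07 ± 0.18.

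Irf7, the factor that amplifies interferon production, was not called (-0.67 ± 0.38, adjusted p = 0.205), and its diaphragm libraries were spread widely. It had 79.4 to 177 CPM in dura. In diaphragm it had 109 and 148 CPM in libraries 1 and 7, 459 and 415 CPM in libraries 2 and 8, and 58.5, 85.9 and 93.7 CPM in libraries 3, 6 and 9. The pair 2 and 8 stood above every dural library and library 3 below every one.

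**Figure D2:**
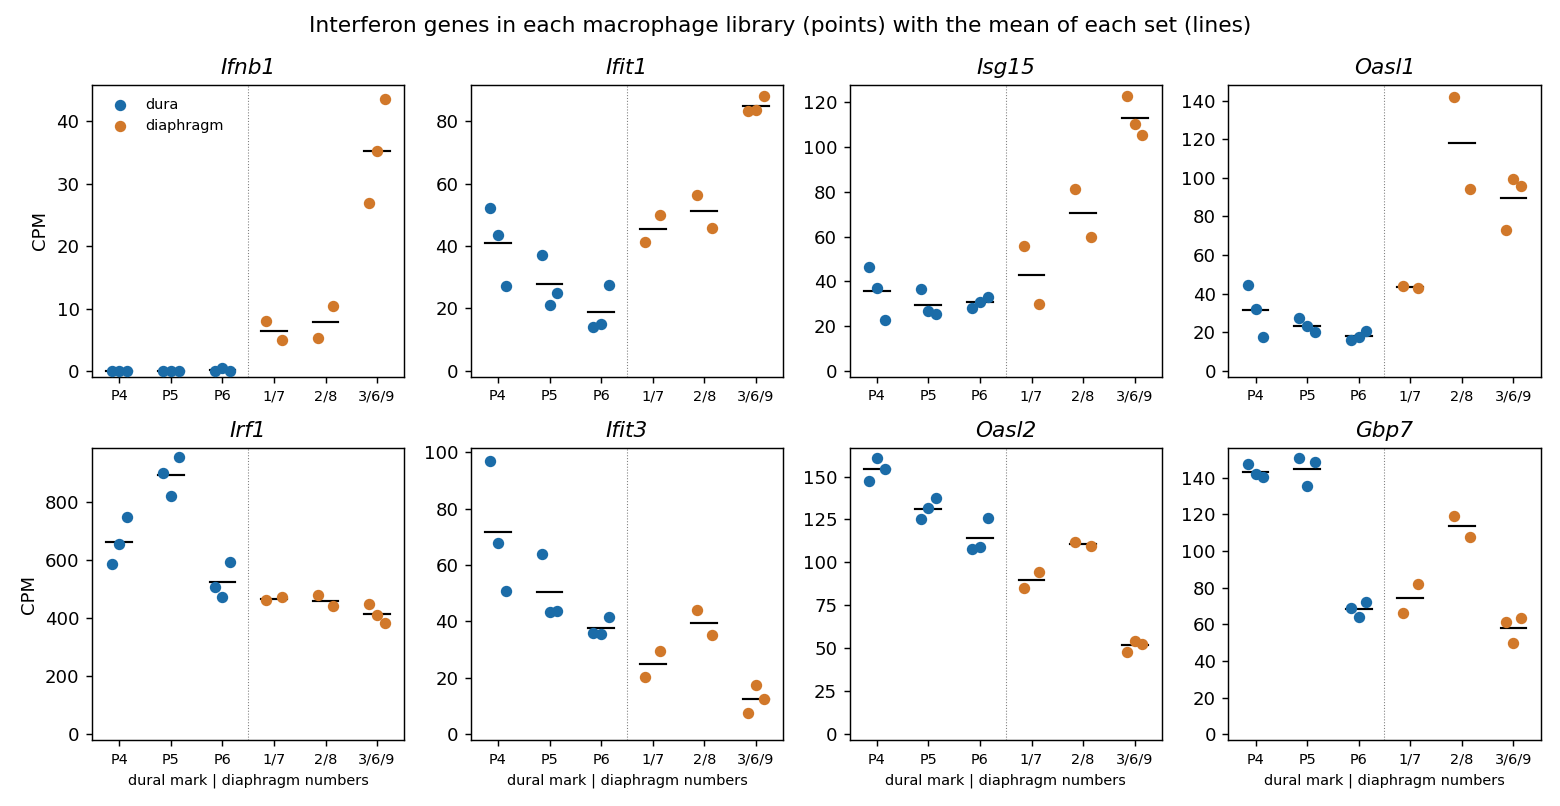
CPM of selected interferon genes in each library (1 point per library), with the dural marks P4, P5 and P6 on the left and the diaphragm numbers 1/7, 2/8 and 3/6/9 on the right of each panel. Ifnb1 is at or near 0 in all dural libraries and highest in 3/6/9, where it reaches 43.7 CPM. Among the dural marks, Gbp7 is lowest in P6, at 63.7 to 72.2 CPM.

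The IFIT genes encode proteins that bind foreign RNA and block its translation, and Ifit3 and Ifit1 went in opposite directions although they lie in the same cluster. Ifit3 (chromosome 19, 34583531 to 34588731) had 35.5, 43.85 and 96.9 CPM as its lowest, median and highest value in dura, against 7.38, 20.4 and 43.95 CPM in diaphragm. Ifit1, the member that binds the 5′ end of RNA (chromosome 19, 34640871 to 34650009), had 14.2, 27.1 and 52.1 CPM in dura, against 41.1, 56.3 and 87.9 CPM in diaphragm. Both pairs of ranges overlapped: 4 dural libraries lay above all diaphragm libraries for Ifit3, and 7 lay below all of them for Ifit1. The log2 fold changes were 1.16 ± 0.32 for Ifit3 (adjusted p = 0.0133) and -1.13 ± 0.26 for Ifit1 (adjusted p = 0.00422).

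Leaving out diaphragm libraries 3, 6 and 9 ended both calls, with log2 fold changes of 0.75 for Ifit3 and -0.70 for Ifit1 and adjusted p of 0.0693 and 0.108, and the call of Ifit3 was also lost without the libraries of mark P4 (0.0804) and with dural libraries summed per number (0.126). Over all 31 alternatives the adjusted p ran from 0.00133 to 0.126 for Ifit3 and from 0.000291 to 0.108 for Ifit1. Ifit3 has a near-identical copy, Ifit3b, so reads could be split between them, and Ifit3b, named for that likeness, was higher in dura as well, at 1.24 ± 0.30 (adjusted p = 0.00506). Ifit2, which lies next to Ifit3 on the other side, was not called, at 0.59 ± 0.24 (adjusted p = 0.0752).

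Isg15 encodes a ubiquitin-like protein that is attached to other proteins, and Usp18 the protease that removes it. Isg15 (chromosome 4, 156199424 to 156200818) had 22.7, 30.9 and 46.5 CPM as its lowest, median and highest value in dura, against 30.1, 81.25 and 123 CPM in diaphragm. Library 7 of the diaphragm lay within the dural range and the other 6 above it. The log2 fold change was -1.34 ± 0.24 (adjusted p = 0.000553), which missed the threshold only when dural libraries of 1 number were added together (0.0576, the highest of 31 alternatives, the lowest being 9.77e-07). Usp18 was not called, at 0.38 ± 0.15 (adjusted p = 0.0642), but was called higher in dura by DESeq2 and with either library totals or upper-quartile factors.

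The OAS family makes the short adenylate chains that switch on the RNase that degrades viral RNA, and the OASL genes are its relatives. Oasl2 and Oasl1, neighbours on chromosome 5, moved oppositely. Oasl2 (114896936 to 114912234), which in mouse keeps synthetase activity, had 108, 131.5 and 161 CPM as its lowest, median and highest value in dura, against 47.9, 85.2 and 112 CPM in diaphragm. Oasl1 (114923240 to 114937915), known in mouse to restrain the translation of Irf7, had 15.9, 20.85 and 44.5 CPM in dura, against 42.7, 94.4 and 142 CPM in diaphragm. For Oasl1, 8 of 9 dural libraries lay below all diaphragm libraries, and 1P4, at 44.5 CPM, lay above diaphragm libraries 1 and 7. The log2 fold changes were 0.75 ± 0.18 for Oasl2 (adjusted p = 0.00524) and -1.80 ± 0.26 for Oasl1 (adjusted p = 9.54e-05). The call of Oasl1 was kept in all 31 alternatives, and that of Oasl2 was lost only with dural libraries summed per number (0.111, against a lowest of 0.000402). Oas1a, Oas2 and Oas3 were not called, with fold changes between -0.175 and 0.33, and Oas1a shares sequence with the near-identical Oas1g.

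Within single libraries the ratios of these neighbours separated the tissues. Ifit3 over Ifit1, whose genes are 52139 bases apart, ran from 1.51 to 2.54 in dura and from 0.0887 to 0.780 in diaphragm. Oasl2 over Oasl1, 11005 bases apart, ran from 3.31 to 8.71 in dura and from 0.548 to 2.21 in diaphragm. Ifit2 over Ifit3 ran from 0.952 to 1.46 in dura and from 1.53 to 3.49 in diaphragm. Of 9 pairs of neighbouring members less than 150000 bases apart, these 3 had ratios with no overlap and the other 6 overlapped. Rsad2 over Cmpk2, for example, ran from 1.21 to 2.25 in dura and from 1.35 to 12.3 in diaphragm. Neighbouring pairs were looked up with these values known, and no test was made of them. Ifit3 with Ifit1, and Oasl2 with Oasl1, were already called in opposite directions, so the separation of their ratios adds no support. The ranges of Ifit2 over Ifit3 were separated only narrowly. How often the ratios of other neighbouring genes separate the tissues was not computed.

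**Figure D3:**
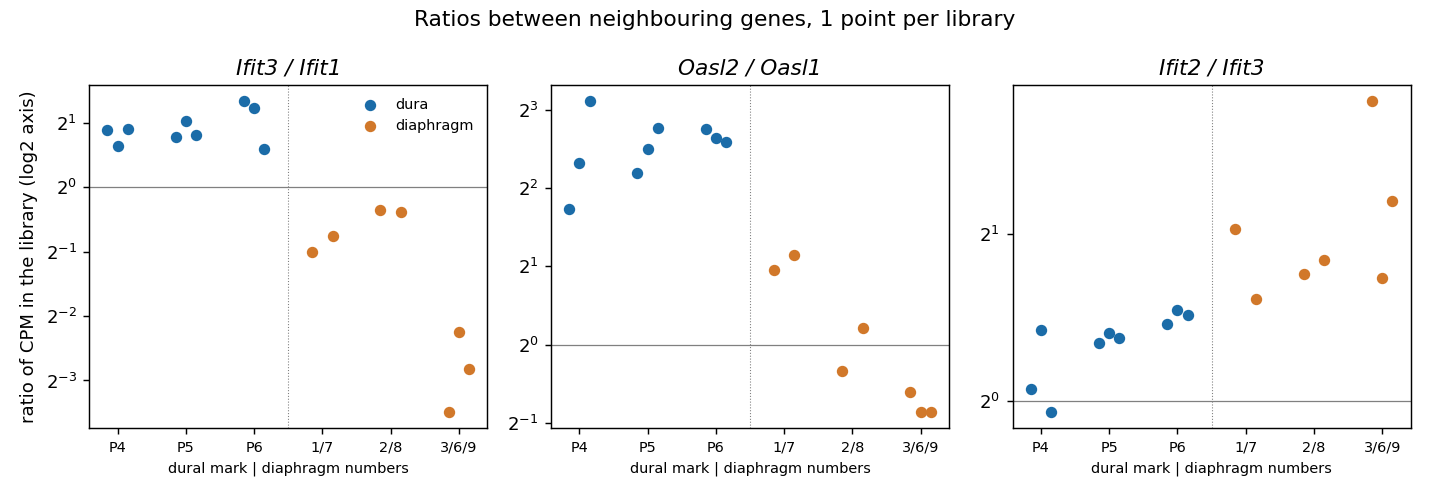
Ratio of CPM between neighbouring genes within each library (vertical axis, log2 scale, 1 point per library), with dural marks on the left and diaphragm numbers on the right of each panel. Ifit3 over Ifit1 lies at 1.51 or above in all dural libraries and at 0.780 or below in all diaphragm libraries.

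None of the 5 nucleic acid sensors was called between tissues by edgeR, DESeq2 or limma-voom, and 0 had an unadjusted p under 0.05 in edgeR. Ifih1 and Dhx58, which bind viral RNA in the cytoplasm, had log2 fold changes of -0.003 ± 0.114 and 0.135 ± 0.16. Eif2ak2, the kinase that halts translation on double-stranded RNA, Zbp1, which senses left-handed nucleic acid, and Ifi204, a DNA sensor of the mouse, were at 0.19, 0.19 and -0.085. All 5 had overlapping ranges in the tissues.

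Of the 10 antiviral effectors, 1 was called. Isg20, a nuclease that degrades RNA, had 8.265, 13.6 and 16.6 CPM as its lowest, median and highest value in dura, against 4.71, 7.94 and 11.4 CPM in diaphragm, with overlapping ranges. Its log2 fold change was 0.645 ± 0.21 (adjusted p = 0.0306), and the call was lost in 14 of 31 alternatives, with adjusted p from 0.012 to 0.193. The other 9 were Bst2 (tetherin), which holds budding virus at the membrane, Rsad2 (viperin) and its neighbour Cmpk2, which act on cytidine nucleotides, Mx1, Ifi44, Xaf1, Trim30a, Parp14 and Rtp4. Their fold changes ran from -0.66 (Rsad2) to 0.83 (Ifi44). The Mx1 allele of C57BL/6 mice is known to be defective, and Mx1 RNA had 7.60 to 17.5 CPM in dura and 5.42 to 21.3 CPM in diaphragm.

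Among the 6 interferon-inducible GTPases, which attack the vacuoles of intracellular microbes, Igtp and Ifi47 were higher in dura. Igtp had 43.4, 64.7 and 85.6 CPM as its lowest, median and highest value in dura, against 19.1, 39.6 and 56.3 CPM in diaphragm. Ifi47 had 63.95, 96.6 and 119.6 CPM in dura, against 29.6, 55.3 and 100.2 CPM in diaphragm. The ranges overlapped for both, and the log2 fold changes were 0.65 ± 0.20 and 0.64 ± 0.20 (adjusted p = 0.025 and 0.024). Igtp lost its call in 5 of 31 alternatives and Ifi47 in 4, among them without mark P4, without mark P5 and without diaphragm libraries 3, 6 and 9, with a highest adjusted p of 0.178 for Igtp and 0.213 for Ifi47. Gbp2, Gbp3, Gbp7 and Irgm1 were not called, at -0.28, -0.55, 0.60 and 0.42. Among the members called between tissues or marks, Irf1, Irf9, Igtp, Ifi47, Oasl1, Gbp7, Oas2 and Ifnar2 each overlap the span of another annotated gene, on the same or the opposite strand. With an unstranded kit, reads from sequence that both genes of a pair share cannot be told apart. How much exon sequence the pairs share was not computed.

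Per kilobase of exon, Bst2 led in both tissues, with 311 CPM per kb in dura and 248 in diaphragm, followed by Irf1 with 174 and 111. Isg15 stood at rank 4 in dura, with 42.2 CPM per kb, and at rank 3 in diaphragm, with 107. Ifnb1 was last in dura, with 0.0793 CPM per kb, and stood at rank 14 of 38 in diaphragm, with 25.6.

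The diaphragm libraries differed among themselves in 2 ways. In libraries 2 and 8, 25 of 38 members (65.8%) lay above all other diaphragm libraries, where 8.97% of all 13136 genes did, and no member lay below, where 5.02% of genes did. They included Irf7, Stat2 and Ifnar2, 4 of the 5 sensors (all but Ifih1), and Gbp2, Gbp3 and Gbp7. Gbp3 had 188 and 131 CPM in libraries 2 and 8, against 58.2 to 97.7 CPM in the other 5. Oas3 had 106 and 85.35 CPM in libraries 2 and 8, against 27.9 to 51.3 CPM in the others. For Ifi204 the values were 225 and 188 CPM, against 95.6 to 139 CPM. Neither Ifnb1, Ifit1 nor Isg15 was among these 25.

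Libraries 3, 6 and 9 had the most Ifnb1. There, 5 members (13.2%, against 13.9% of all genes) lay above all other diaphragm libraries, namely Ifnb1, Ifnar1, Ifit1, Isg15 and Mx1. Ifit1 had 83.2, 83.6 and 87.9 CPM in them, against 41.1 to 56.3 CPM in the other 4, and Isg15 had 123, 110.3 and 105 CPM, against 30.1 to 81.25 CPM. A further 15 members (39.5%, against 13.5% of all genes) lay below all other diaphragm libraries, among them Irf7, Irf9, Ifit2, Ifit3, Oasl2, Cmpk2 and Bst2. Cmpk2 had 12.1, 8.45 and 21.1 CPM in libraries 3, 6 and 9, against 33.1 to 43.2 CPM in the others. Most other members were thus not at their highest in the libraries with the most Ifnb1. In libraries 1 and 7 only Isg20 lay above the rest (2.63%, against 17.3% of genes), and Ifnar1, Ifnar2, Isg15 and Oasl1 lay below (10.5%, against 14.2%). What the numbers stand for is not stated in the labels, and no test was made between these sets.

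**Figure D4:**
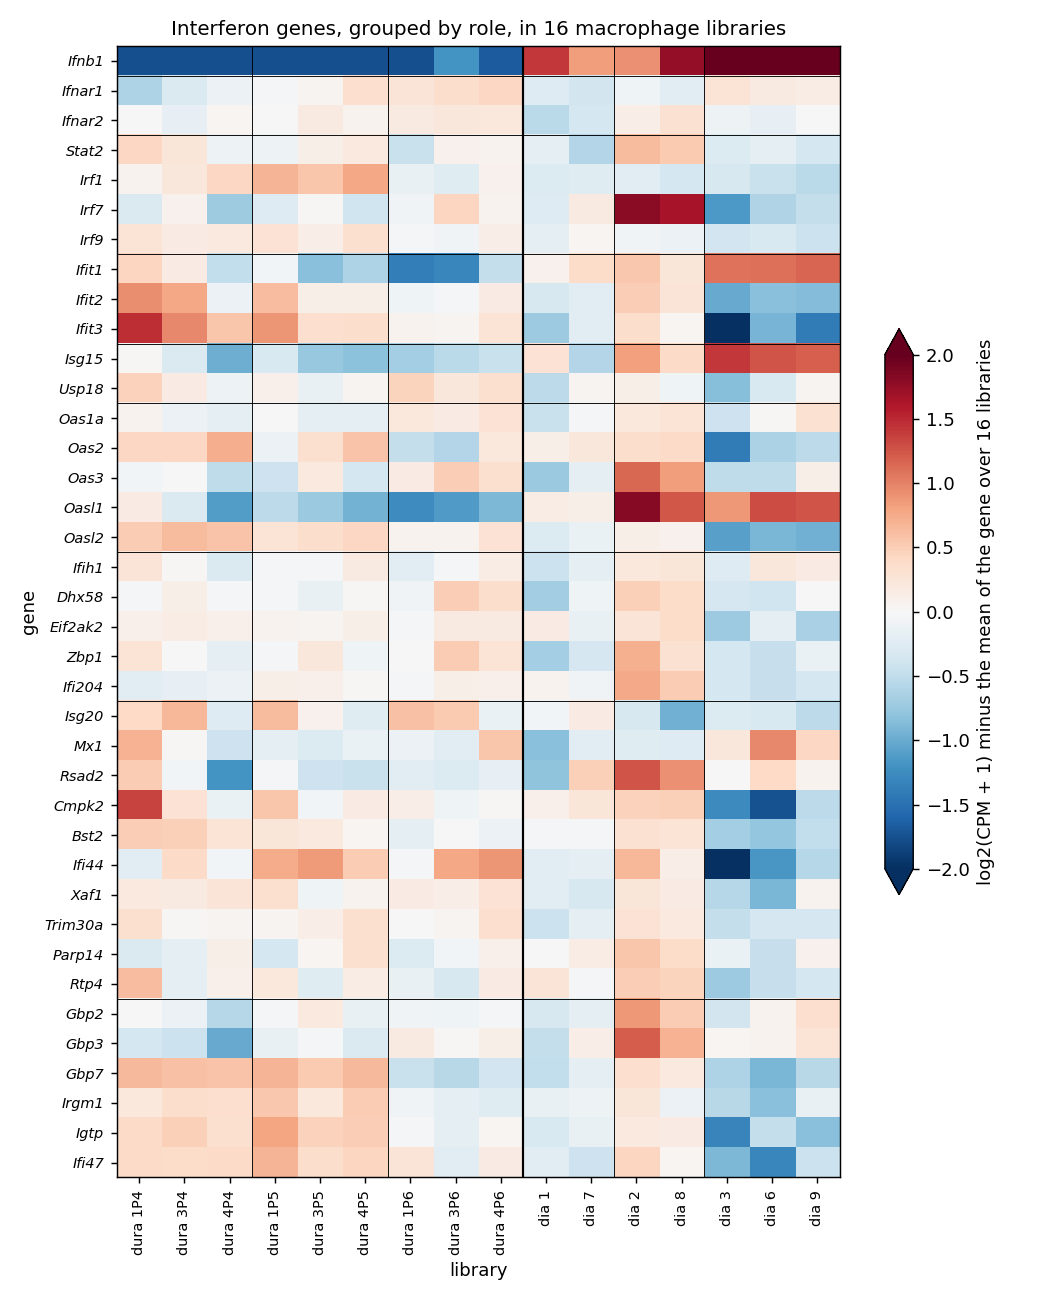
Levels of the 38 interferon genes (rows, grouped by role) in 16 macrophage libraries (columns, dural marks first and diaphragm numbers after them). Colour is log2(CPM + 1) minus the mean of the gene over the 16 libraries, red above it and blue below. Within the diaphragm, 25 of 38 genes are highest in libraries 2 and 8, while Ifnb1, Ifit1 and Isg15 are highest in 3, 6 and 9.

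Other genes moved with these sets. The 16 NF-kB targets and cytokines, whose inducing signals also act on Ifnb1, summed to 4970 to 9749 CPM in dura and 9939 to 19900 CPM in diaphragm, with 18470 to 19900 CPM in libraries 3, 6 and 9, and none was at 0. Of these, 1 was higher and 13 lower in dura. The 18 immediate early genes did not follow them, with 8 higher and 3 lower in dura. They summed to 29850 to 42350 CPM in dura and 27730 to 36170 CPM in diaphragm, with 31850 to 36170 CPM in libraries 3, 6 and 9. The 10 conventional dendritic cell markers summed to 149 to 251 CPM in dura, to 766 to 1008 CPM in libraries 3, 6 and 9, and to 220 to 318 CPM in the other diaphragm libraries. The 12 T and NK cell markers summed to 144 and 139 CPM in libraries 2 and 8, with Gzma and Gzmb at 0, against 28.5 to 70.7 CPM in the other diaphragm libraries. The 9 fibroblast markers summed to 16100 and 7838 CPM in libraries 1 and 7, against 304 to 857 CPM in the other 5. The 10 skeletal muscle markers summed to 2.24 to 14.1 CPM in dura, with Mb and Tnnc2 at 0, and to 137 to 309 CPM in diaphragm. Of 11 classical monocyte markers, 0 were higher and 7 lower in dura, with sums of 2223 to 3175 CPM in dura and 2297 to 4863 CPM in diaphragm. Of 9 endothelial markers, 0 were higher and 5 lower in dura. They summed to 28.2 to 376 CPM in dura, to 3064 and 2938 CPM in diaphragm libraries 1 and 7, and to 57.4 to 615 CPM in the other 5. Of 6 liver markers tested, only Ttr was higher in dura, at 4.91 ± 1.40, with overlapping ranges. The other 5 were lower, from -13.3 (Alb) to -5.94 (Apoa2). The 7 listed summed in dura to 4.64 to 2995 CPM (2995 in 1P6), with Serpina1a and Fgb at 0, and in diaphragm to 227 to 665 CPM. Only Ttr of the 7 had enough counts to be tested between dural marks, so the dural sums need not stand for liver transcripts. The part of these in the results was not tested.

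Within the dura, the marks P4 and P6 had the most members called between them. Dural macrophages of mark P4 had more Gbp7, Ifit1, Ifit3, Oasl1, Oas2, Bst2, Irgm1, Igtp, Oasl2 and Irf1 than those of mark P6, and less Gbp3, Ifnar1 and Ifnar2. Of 37 members tested, 10 were higher and 3 lower in P4 (35.1%), where 33.3% of all 13239 genes were called, 17.3% higher and 16.0% lower. The median log2 fold change, P4 minus P6, was 0.043 over the members and 0.004 over all genes. Mark P5 exceeded P6 in 5 members and lay below it in 1 (16.2%, against 17.4% of all genes, 8.98% higher and 8.38% lower). Between P4 and P5 only Irf1 was called, lower in P4 (2.7% of 37 members, against 7.35% of all genes, 4.26% higher and 3.09% lower), and 8 members had an unadjusted p under 0.05 (21.6%, against 19.3% of all genes). With library totals, which moved the median of all genes to 0.135 for P4 minus P6 and 0.134 for P4 minus P5, 13 members were higher and 2 lower in P4 than in P6, and 2 were higher and 0 lower in P4 than in P5. With upper-quartile factors, 4 were higher and 0 lower in P5 than in P6. Without library 3P6, 6 members were higher and 2 lower in P4 than in P6. The shares of all genes called in these other settings are not given here.

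By ranges, all P4 libraries lay above all P6 libraries in 9 members and below them in 6 (of all genes, 23.9% and 22.7%). All P5 libraries lay above all P6 libraries in 7 members and below them in 4 (17.7% and 18.3%), and all P4 libraries lay above all P5 libraries in 2 and below them in 5 (14.7% and 11.2%). Set against both other marks together, P4 lay above in 2 of 38 members and below in 3 (10.7% and 8.55% of all genes), P5 above in 1 and below in 0 (1.45% and 1.17%), and P6 above in 3 and below in 6 (14.6% and 13.8%).

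Gbp7, a guanylate-binding protein (chromosome 3, 142530342 to 142550149), had the lowest adjusted p of the members in P4 against P6 and in P5 against P6. It had 147.5, 142 and 141 CPM in the P4 libraries, 151, 135 and 148.5 CPM in P5, and 68.7, 63.7 and 72.2 CPM in P6. All P4 and P5 libraries thus lay above all P6 libraries. The log2 fold changes were 1.06 ± 0.09 for P4 minus P6 (adjusted p = 2.77e-06) and 1.09 ± 0.09 for P5 minus P6 (adjusted p = 6.61e-06), and both calls held in all 17 alternatives. Its neighbour Gbp3 went the other way, with 63.4, 60.02 and 39.9 CPM in P4, 72.7, 78.6 and 66.2 CPM in P5, and 91.6, 82.2 and 87.99 CPM in P6. All P4 libraries lay below all P6 libraries for Gbp3, at -0.69 ± 0.15 (adjusted p = 0.00394).

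Irf1 was highest in P5. It had 586, 656 and 749 CPM in P4, 901, 822 and 956 CPM in P5, and 506, 471.5 and 593 CPM in P6. The P5 libraries lay above all others, while P4 and P6 overlapped. The log2 fold changes were 0.77 ± 0.11 for P5 minus P6 (adjusted p = 0.00059), 0.34 ± 0.11 for P4 minus P6 (adjusted p = 0.0369) and -0.43 ± 0.11 for P4 minus P5 (adjusted p = 0.0367). Of 17 alternatives, the last lost its call in 6 (adjusted p 0.000185 to 0.136), when library totals were used and when any of 1P4, 3P4, 1P5, 3P5 or 4P5 was left out. The call of P4 against P6 was lost in 4 (0.00201 to 0.154), without 3P4, 4P4, 1P6 or 3P6.

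The other GTPases called were lowest in P6. Igtp had 64.7, 68.9 and 61.85 CPM in P4, 85.6, 67.9 and 69.7 CPM in P5, and 47.9, 43.4 and 50.45 CPM in P6. Irgm1, which regulates the other immunity-related GTPases, had 106, 117 and 115 CPM in P4, 133, 106 and 129 CPM in P5, and 86.6, 79.2 and 77.1 CPM in P6. For both genes every P6 library lay below every other dural library. The log2 fold changes of P4 minus P6 were 0.46 ± 0.12 for Igtp (adjusted p = 0.00925) and 0.47 ± 0.11 for Irgm1 (0.0044), and those of P5 minus P6 were 0.65 ± 0.12 (0.00229) and 0.60 ± 0.11 (0.00205). Ifi47 had 96.7, 96.6 and 97.1 CPM in P4, 119.6, 94.6 and 100.6 CPM in P5, and 88.75, 63.95 and 83.4 CPM in P6. It was called in P5 minus P6, and in no other pair of marks, at 0.41 ± 0.13 (adjusted p = 0.0425), a call lost in 8 of 17 alternatives (0.00464 to 0.144).

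In addition, 2 IFIT genes, 3 genes of the OAS family and Bst2 were higher in P4 than in P6. Ifit3 had 96.9, 67.7 and 50.7 CPM in P4, 63.8, 43.3 and 43.85 CPM in P5, and 36.1, 35.5 and 41.4 CPM in P6. Ifit1 had 52.1, 43.5 and 27.1 CPM in P4, 37.1, 21.25 and 24.9 CPM in P5, and 14.2, 15.05 and 27.4 CPM in P6. The P4 and P6 libraries did not overlap for Ifit3 and did for Ifit1. The log2 fold changes, P4 minus P6, were 0.92 ± 0.22 for Ifit3 (adjusted p = 0.00614), kept in all 17 alternatives, and 1.10 ± 0.30 for Ifit1 (adjusted p = 0.0149), lost without 1P4, 1P6 or 3P6 (range 2.78e-09 to 0.0618).

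Oasl2 had 147.5, 161 and 154 CPM in P4, 125, 131.5 and 137 CPM in P5, and 108, 109 and 126 CPM in P6. Bst2 had 351, 347 and 301 CPM in P4, 293, 284.5 and 256.5 CPM in P5, and 218, 250.4 and 228 CPM in P6. For both genes all P4 libraries lay above all other dural libraries, with log2 fold changes of P4 minus P6 of 0.42 ± 0.09 (adjusted p = 0.00411) and 0.51 ± 0.10 (adjusted p = 0.00135). Oas2 had 41.1, 41.3 and 51.25 CPM in P4, 28.2, 38.4 and 45.7 CPM in P5, and 21.8, 20.1 and 35.65 CPM in P6. It was higher in P4 than in P6, with no overlap, at 0.77 ± 0.23 (adjusted p = 0.0209), lost without 4P4, 1P6 or 3P6 (range 7.79e-06 to 0.0878). Oasl1 had 44.5, 32.2 and 17.7 CPM in P4, 27.2, 23.2 and 20.03 CPM in P5, and 15.9, 17.4 and 20.85 CPM in P6. It was higher in P4 than in P6, where the ranges overlapped, at 0.78 ± 0.27 (adjusted p = 0.044), a call lost in 10 of 17 alternatives (0.000219 to 0.198), 8 of them leaving out 1 library (all but 4P4). Oas1a had 60.65, 52.4 and 52.2 CPM in P5 and 69.46, 67.15 and 73.4 CPM in P6. It was lower in P5 than in P6, with no overlap, at -0.35 ± 0.11 (adjusted p = 0.043), and lost its call in 9 of 17 (0.0173 to 0.171).

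Both receptor chains were lower in P4 than in P6. Ifnar1 had 105, 133 and 150.1 CPM in P4, 157, 168 and 205 CPM in P5, and 195, 207 and 218 CPM in P6. All P4 libraries lay below all other dural libraries. The log2 fold change, P4 minus P6, was -0.68 ± 0.14 (adjusted p = 0.00247). Ifnar2 had 149.6, 135 and 155 CPM in P4, 152, 170.4 and 159.5 CPM in P5, and 171, 176 and 175 CPM in P6, at -0.26 ± 0.09 (adjusted p = 0.0392). Its call was lost in 7 of 17 alternatives (0.0151 to 0.296), with library totals, with no filter on low counts, and without 1P4, 3P4, 3P5, 3P6 or 4P6.

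**Figure D5:**
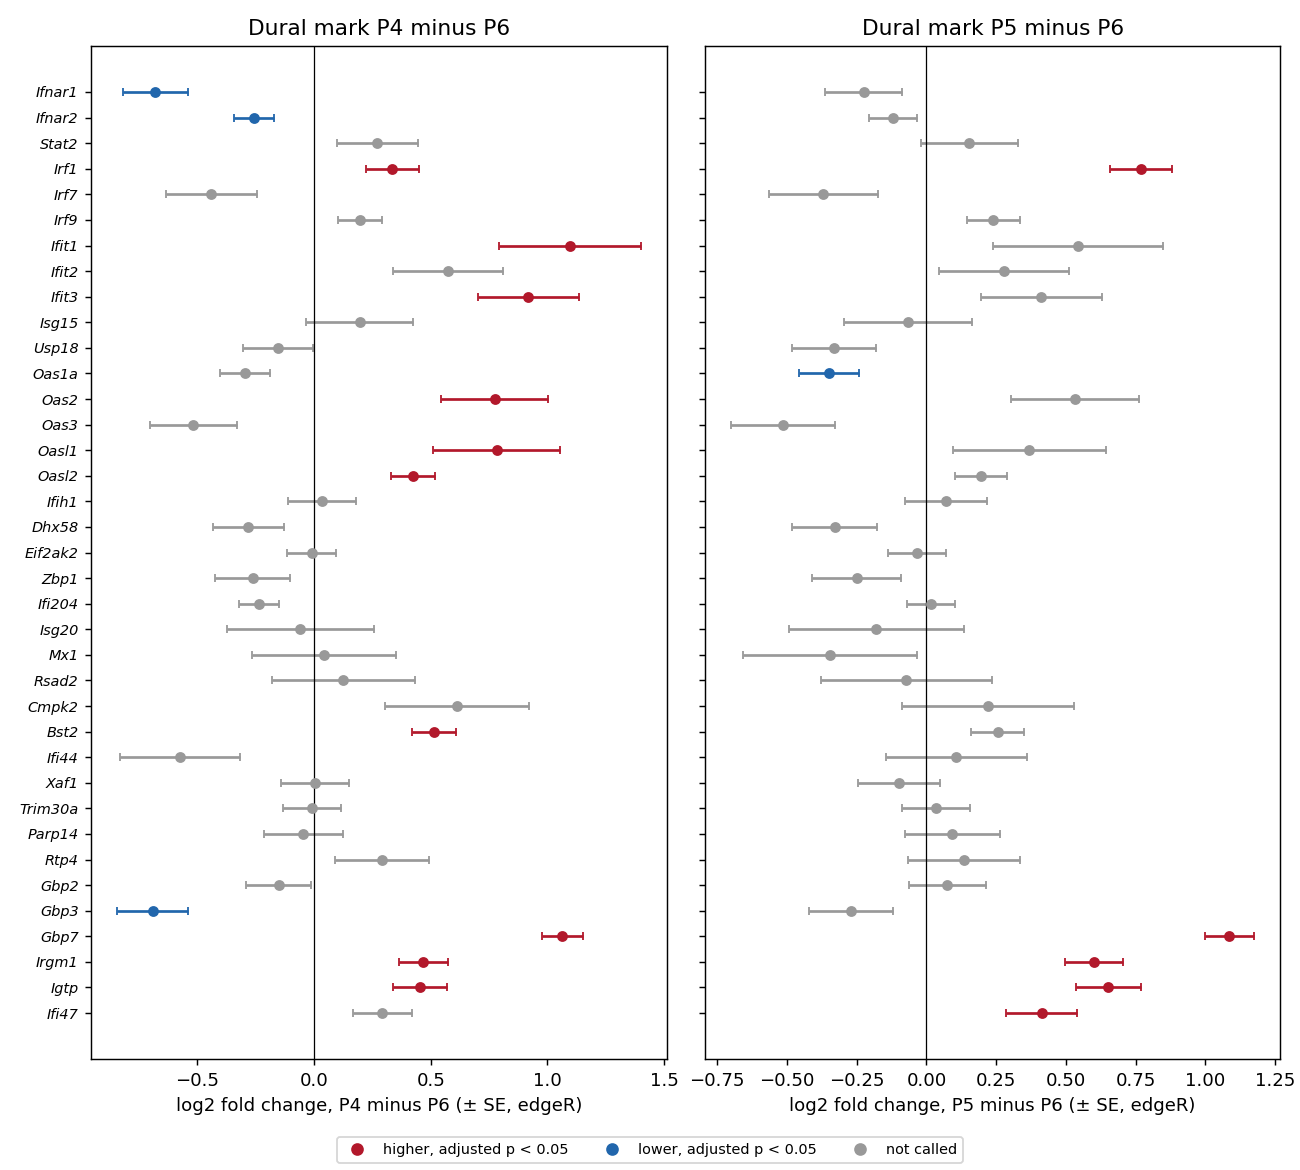
Log2 fold changes of 37 interferon genes between dural marks (horizontal axes, bars are the standard error from edgeR), with called genes coloured. Gbp7 lies at 1.06 for P4 minus P6 and 1.09 for P5 minus P6, with error bars of 0.09, and the receptor chains lie left of 0 for P4 minus P6.

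Other cell type markers and induced genes also differed between the dural marks. The 12 T and NK cell markers summed to 275 to 311 CPM in P4, 174 to 229.5 CPM in P5 and 31.6 to 46.6 CPM in P6, with Ncr1, Gzma and Gzmb at 0 in all 3 marks. Of these 12, only Cd4, which macrophages can express too, had enough counts to be tested. The 9 fibroblast markers summed to 2226 to 4046 CPM in P4, 631 to 834 CPM in P5 and 263 to 410 CPM in P6. The 7 plasmacytoid dendritic cell markers other than Bst2 summed to 445 to 481 CPM in P4, 406 to 430 CPM in P5 and 180.5 to 197 CPM in P6, where Ly6d and Klk1 were at 0. Of these, Siglech (3.04 ± 0.11) and Tcf4 (0.86 ± 0.09) were called higher in P4 than in P6. Ccr9, Cox6a2 and Runx2 were not called, and Runx2 lay the other way with no overlap, at -0.66 ± 0.24. The 6 mast cell markers summed to 38.4 to 156 CPM in P4, 14.6 to 31.8 CPM in P5 and 2.76 to 5.70 CPM in P6. Other lists ran the other way or were mixed. The 10 conventional dendritic cell markers summed to 219 to 251 CPM in P4, with Xcr1 at 0, 149 to 191 CPM in P5 and 155 to 180.3 CPM in P6. Of 9 tested, 3 were higher and 5 lower in P4 than in P6. The higher were Fscn1 (2.64 ± 0.15), Zbtb46 (1.78 ± 0.35) and Cd209a (0.48 ± 0.16). The lower were Flt3 (-3.13 ± 0.50), Clec9a (-3.61 ± 0.34), Dpp4 (-3.58 ± 0.32), Ccr7 (-4.85 ± 1.225) and Xcr1 (-7.58 ± 1.19). Of 11 classical monocyte markers, 2 were higher and 2 lower in P4 than in P6. The higher were Fn1 (2.04 ± 0.55) and F13a1 (1.95 ± 0.11), and the lower were the chemokine receptor Ccr2 (-4.66 ± 0.34) and Clec4e (-2.07 ± 0.22). The 16 NF-kB targets and cytokines summed to 4970 to 5855 CPM in P4, 7539 to 8419 CPM in P5 and 8111 to 9749 CPM in P6, with 0 higher and 10 lower in P4 than in P6. The 18 immediate early genes summed to 29850 to 33710 CPM in P4, 39210 to 42350 CPM in P5 and 38500 to 38760 CPM in P6, and 1 was higher and 7 lower in P4 than in P6. The part of all these lists in the differences between marks was not tested.

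The other interferon genes that were looked up had few counts. Of 11 listed beside Ifnb1, none passed the filter, and together they had 3 counts in dura and 203 in diaphragm. The 5 Ifna genes listed (Ifna1, Ifna2, Ifna4, Ifna5 and Ifna13) had 1 count in dura, in 3P6, and 139 in diaphragm. Of the 139, 12 counts of Ifna2 were in library 8 and the rest in libraries 3, 6 and 9. Any other Ifna genes were not looked up. Ifna1 had 19 and 10 counts in libraries 3 and 9, Ifna4 had 24 and 2 in libraries 3 and 6, and Ifna5 had 12, 14 and 11 in libraries 3, 6 and 9. The Ifna genes are close copies of each other, so the split between them is uncertain. Ifng, the gene of interferon gamma, had 14 and 36 counts in libraries 2 and 8 and 0 in every other library of either tissue. The T and NK cell markers of libraries 2 and 8 summed to 139 to 144 CPM, the highest in the diaphragm. Their sums were higher still in the dural marks P4 (275 to 311 CPM) and P5 (174 to 229.5 CPM), which had no Ifng count. Only Cd4 of these markers, which macrophages can express too, had enough counts to be tested between tissues. The sums therefore do not by themselves measure T and NK cells in either tissue. The source of the Ifng counts was not tested.

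For comparison with the lists that follow, 11.2% of all genes were higher and 15.3% lower in dura, with a median of -0.011. Of 10 further receptor and JAK-STAT genes tested, 2 were higher and 3 lower in dura, with a median log2 fold change of -0.011, equal to that of all genes. The 3 lower were Stat3 (-1.12 ± 0.12, adjusted p = 5.28e-06), a STAT used mainly by other cytokines, the kinase Jak2 (-1.02 ± 0.21, 0.0019), and Socs1 (-0.82 ± 0.27, 0.0322), which inhibits JAK kinases. Stat3 had 131, 162 and 176 CPM as its lowest, median and highest value in dura, against 256.5, 318 and 459.9 CPM in diaphragm, with no overlap. Of 17 sensing and induction genes tested, 5 were higher and 4 lower in dura, with a median of 0.043. Ikbke, a kinase that activates the interferon regulatory factors, was at -2.74 ± 0.425 (adjusted p = 0.000175), and the receptors Tlr7 and Tlr4, for single-stranded RNA and lipopolysaccharide, were at 1.15 ± 0.19 (adjusted p = 0.000283) and 0.84 ± 0.20 (adjusted p = 0.00465). Ikbke lay below, and Tlr7 above, all diaphragm libraries in every dural library.

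Of 40 interferon-stimulated genes outside the 39, 11 were higher and 7 lower in dura, with a median of 0.266. The largest called changes among those with at least 5 CPM were all lower in dura, in Ifi205 (-3.28 ± 0.33, adjusted p = 2.59e-06), the chemokine Cxcl10 (-1.87 ± 0.25, 4.36e-05) and the membrane protein Ifitm1 (-1.60 ± 0.27, 0.000435). Cxcl10 had 73.9, 143 and 183 CPM as its lowest, median and highest value in dura, against 248, 500.0 and 732.5 CPM in diaphragm, with no overlap. Of 21 interferon gamma and antigen presentation genes, 1 was higher and 3 lower in dura, with a median of -0.108. The GTPase Irgm2, whose gene overlaps Igtp, was at 0.68 ± 0.24 (adjusted p = 0.0478), the class I molecule H2-D1 at -0.43 ± 0.13 (adjusted p = 0.0202) and the immunoproteasome subunit Psmb10 at -0.325 ± 0.11 (adjusted p = 0.0366).

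Between P4 and P6, 17.3% of all genes were higher and 16.0% lower in P4. Of the 21 interferon gamma and antigen presentation genes, 3 were higher and 14 lower in P4 than in P6. The largest of these changes were in genes of MHC class II, which present peptides to T cells, with H2-Eb1 at -4.28 ± 0.06, H2-Ab1 at -3.91 ± 0.07 and H2-Aa at -3.81 ± 0.07 (adjusted p = 9.38e-13, 2.45e-12 and 5.35e-12). H2-Eb1 had 809.5, 949.8 and 874 CPM in P4, 10750, 10680 and 10020 CPM in P5, and 17160, 17040 and 16600 CPM in P6, with no overlap between any marks. In that list 0 genes were higher and 10 lower in P4 than in P5 (4.26% and 3.09% of all genes), and 2 were higher and 6 lower in P5 than in P6 (8.98% and 8.38%). In P4 against P6, 1 of the 10 receptor and JAK-STAT genes was higher and 4 lower, 2 of the 17 sensing genes were higher and 6 lower, and 6 of the 40 interferon-stimulated genes were higher and 8 lower. In P5 against P6 the counts of higher and lower genes were 2 and 0, 2 and 1, and 5 and 2 for these lists, and in P4 against P5 they were 0 and 1, 0 and 5, and 0 and 3.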

How the data were processed

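RNA of sorted macrophages was read from one end, with a kit that does not keep the strand, per the labels' protocols. STAR 2.4.0j, featureCounts, DESeq2 1.20.0 and the build GRCm38 stand in the submitters' processing notes with no role for each. The table deposited by the authors holds whole-number counts per gene. Its name speaks of normalised values, but its column totals differ widely and it was treated as raw. Columns of the same diaphragm number were summed (6 pairs, chi-square per degree of freedom from 1.008 to 1.169, against at least 10.559 between other columns).

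Counts were tested with edgeR 4.0.16 (R 4.3.3) after filterByExpr, with TMM factors, the two-sided quasi-likelihood test and Benjamini-Hochberg adjustment over all genes. Tissue was fitted over 16 libraries, and dural marks over 9 with no other term. The test was tried on simulated counts. For dura against diaphragm (12829 genes) it recovered 49.5% of 97 genes simulated at a log2 fold of 1 and 85.9% of 99 at 2. For P4 against P6 (12959 genes) the shares were 56.6% of 99 and 82.7% of 98. Symbols and exon lengths came from GENCODE and promoters from RefSeq. Intervals cover counting error only, because they were computed from summed counts and leave out the spread between libraries. Reads were counted with no molecular identifiers, so copies of the same molecule would count as separate reads.

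Every listed gene is accounted for. For those called, values are given as the lowest, median and highest library of each tissue, or by library for the dural marks and the diaphragm sets, and for Ifnb1 by library, and from each further list up to 3 called genes with the largest change and a mean of at least 5 CPM in a tissue are named. Single marker genes were named after their values were seen. The members and lists were chosen with earlier results of these data known, and no test over a list was made. Alternatives were other scalings, DESeq2 1.42.0, limma-voom (limma 3.58.1), no filter, first runs, sums per dural number, a replicate block, and libraries, marks or sets left out.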

Additional observations from a re-analysis of the deposited data

Results flagged for a closer look

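Each member was checked in each tissue for a library far from the others, and 3 of 76 such groups were flagged, where chance flags about 1 in 20. Ifnb1 in dura had 0.468 CPM in library 3P6, from 6 counts, and 0.0673 CPM in the next highest. Cmpk2 in dura had 79.6 CPM in library 1P4 and 45.75 CPM in the next. Rtp4, which helps receptors reach the cell surface, had 100.3 CPM in the same library 1P4 and 75.1 CPM in the next. The 2 diaphragm columns left out for their low totals held counts of the members, above the limit of 3 that a count of 0 allows: 11 of 1496 counts in number 5 (0.735%, 95% Wilson interval 0.411% to 1.31%) and 18 of 2115 in number 4 (0.851%, 0.539% to 1.34%). The members took 0.231% to 0.415% of the counts in the 7 diaphragm libraries.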

How the results depend on the processing

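No call reversed its direction under any alternative. Ifnb1, Oasl1 and Irf1 kept their calls between the tissues under all 31 alternatives. The number of members called between dura and diaphragm, 11 as reported, was 17 with upper-quartile factors, 18 with DESeq2, 18 with library totals, 4 with dural libraries summed per number, 7 without mark P4, 22 without diaphragm libraries 2 and 8, and 7 without libraries 3, 6 and 9. It ran from 9 to 18 with 1 library left out at a time, the highest without diaphragm library 2. The share of called members that were higher in dura was 63.6% as reported, 76.5% with upper-quartile factors and 77.8% with totals alone, and for all called genes 42.2%, 54.3% and 61%. Library totals moved the median of all genes to 0.134 for P4 minus P5 and 0.135 for P4 minus P6. The cause of these shifts was not tested. The number of all genes called in each setting is not set beside these counts of members, here or in the paragraphs below. They therefore do not show whether members moved more than other genes.

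For P4 against P5, 1 member was called as reported, 2 with library totals (both higher in P4, neither of them Irf1), 3 with DESeq2, 2 with limma-voom, 6 with no filter and 0 to 2 with 1 library left out. For P4 against P6, 13 were called as reported and 8 to 15 with 1 library left out, the fewest without 3P6. For P5 against P6, 6 were called as reported, 10 with no filter and 4 to 6 with 1 library left out.

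Libraries with the same dural number correlated at -0.005 to 0.171 in their deviations from the mean of their mark. Those with different numbers correlated at -0.176 to 0.132. The values for the same number were not all over 0.1, so the main tests did not pair the libraries by number. An effect of the number itself was not tested. With the number as a replicate block, 5 members were called for P4 against P5, 18 for P4 against P6 and 11 for P5 against P6, and 10 were called between the tissues with the number as a random replicate block. Depth limits Ifnb1 in dura, where 3 counts correspond to 0.122 to 0.260 CPM in a library.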
